A study of Macaca mulatta with 20 samples.

Results

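Chemokine ligands are the small secreted proteins that guide white blood cells, and their transcripts were followed here in 4 blood cell types of the rhesus macaque. All probes of the array table whose platform gene symbol begins with CCL, CXCL or XCL and a digit were taken. They were 11 of 7303 probes and stood for 11 symbols, CCL2, CCL5, CCL7, CCL8, CCL20, CCL21, CCL3L1, CCL3L3, CXCL8, CXCL10 and CXCL17. No probe of the XCL group was among them. The study sorted monocytes, cytotoxic T cells, B cells and helper T cells from the peripheral blood mononuclear cells of 5 adult females, which lived in 5 social groups and held dominance ranks 1 (high) to 5 (low). No treatment is named in the labels, and each population of each animal was hybridised to 1 array, giving 20 arrays. The column names give the sorts as CD14, CD8, CD20 and CD4. As the rule for the ligands sets, the cytotoxic T cell and B cell arrays of the rank 4 animal were left out, so that 5 monocyte, 4 cytotoxic, 4 B cell and 5 helper arrays were compared.

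Chemokines act through G protein-coupled receptors on the cells they attract, and they are named by the spacing of their first cysteines, as CC, CXC or XC. Monocytes are a classic source of inflammatory chemokines. CXCL8 draws neutrophils, CCL2, CCL7 and CCL8 draw monocytes through CCR2 and related receptors, and the CCL3 family draws monocytes and activated T cells. CCL5, also called RANTES, is a product of memory and effector T cells and of natural killer cells. CXCL10 is induced by interferons and draws cells that carry CXCR3.

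All values are on a log scale, read here as log2 although no source states the base, that the authors had normalized, with 1 common distribution in every array (median 8.39, lower quartile 8.04, upper quartile 9.21, highest value 14.77). Values under the lower quartile cannot be told from background here, since detection p-values were not used. The probes were designed on human sequence, so the level of each was set only against its own level in other arrays. The monocyte, T cell and B cell sorts carried their markers, while no marker particular to helper T cells was listed. CD14 lay at 12.14 or more in monocytes and at most at 8.29 in the 13 lymphocyte arrays used, and CD3D at 12.99 or more in T cells and at most at 7.75 in monocytes. The B cell list (3 genes) averaged 9.95 or more in B cells and at most 7.96 elsewhere, and a dendritic cell list (3 genes) averaged 7.99 to 8.55 in monocytes and at most 8.02 elsewhere. The T cell marker list had 9 measured genes and averaged 8.22 to 8.65 in the 4 B cell arrays, against 7.80 to 7.84 in monocytes and 10.87 to 11.62 in T cells. The 2 arrays left out correlated with the other 18 at no more than 0.193 and with each other at 0.876.

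Over the 4 cell types, 9 of the 11 ligand probes differed in limma's F test with Benjamini-Hochberg adjustment over all probes, where 67.4% of all 7303 probes did. CCL21 and CXCL17 did not pass. In monocytes, 7 ligands were higher than in each of the other 3 types, namely CXCL8, CCL3L3, CCL3L1, CCL7, CCL2, CCL8 and CCL20. Of all probes 22.8% were higher in monocytes than in B cells, 27.5% than in helper T cells and 26.5% than in cytotoxic T cells. The ligands lower in monocytes were none against B cells, where 30.8% of all probes were and CXCL10 alone had an unadjusted p under 0.05 (0.0271), and CCL5 against helper T cells (34% of all probes) and cytotoxic T cells (32.8%). The median difference of the 11 ligands was 1.52 log2 for monocytes minus B cells, 1.51 minus helper T cells and 1.55 minus cytotoxic T cells, while the median over all probes was -0.01, 0.00 and 0.00.

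Counted more strictly, as higher by at least 1 log2 and with an adjusted p under 0.05 against each of the other 3 types, 6 ligands were enriched in monocytes, against 5.01% of all probes. CCL20 fell short on size. CCL5 was the 1 ligand enriched in cytotoxic T cells, where 0.301% of all probes were. None was enriched in B cells or in helper T cells, where 1.04% and 0.11% of all probes were. The plot of every ligand in every array shows the group of monocyte ligands, the single peak of CCL5 and the flat ligands side by side.

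**Figure D1:**
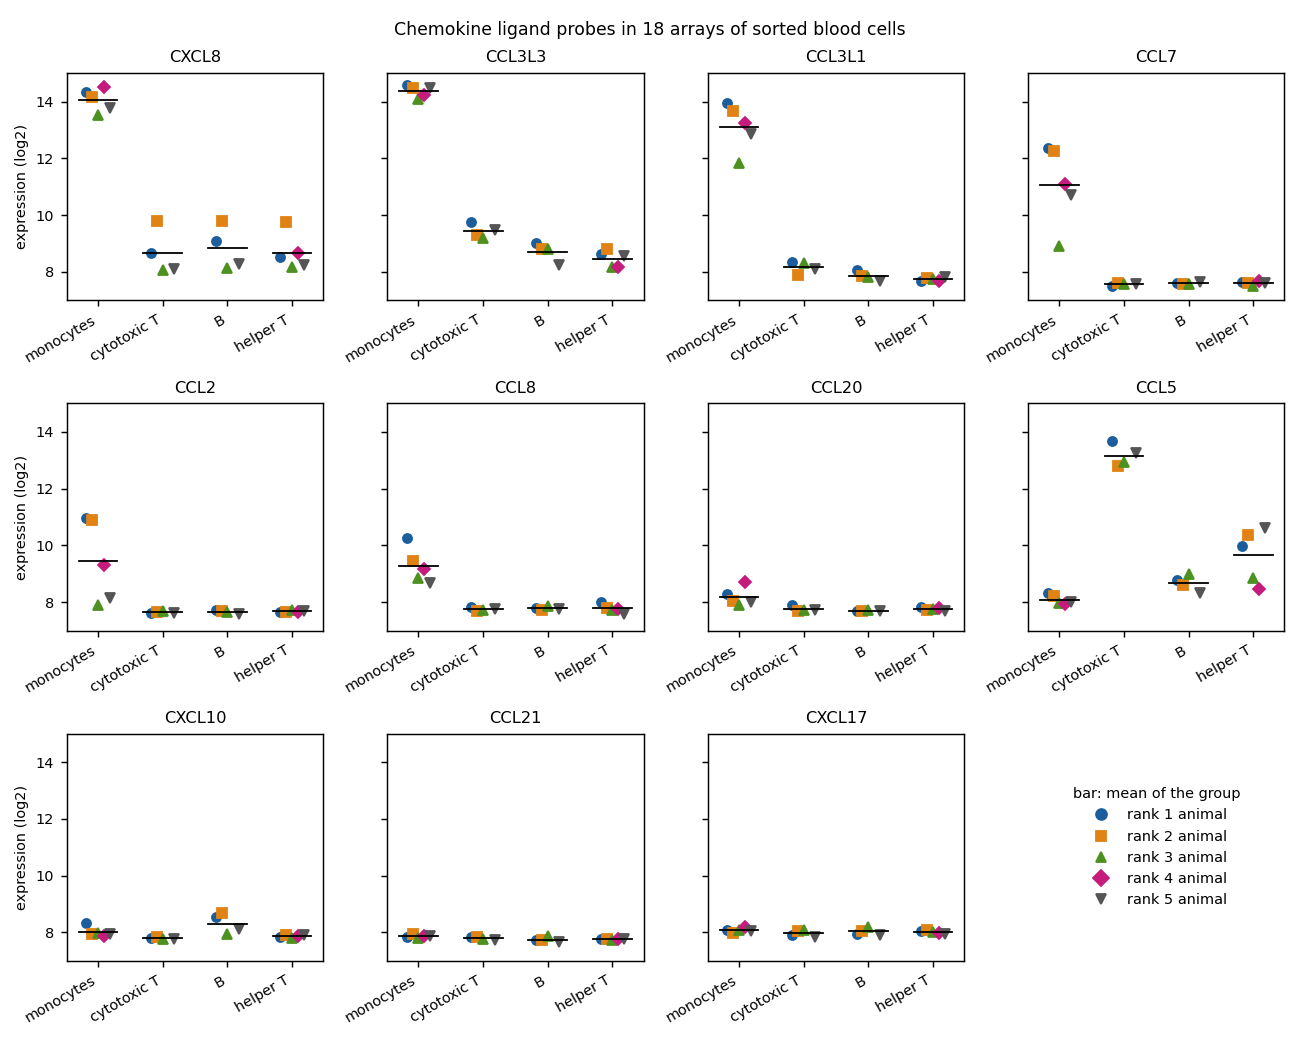
Log2 expression of the 11 chemokine ligand probes (1 panel each) in monocytes, cytotoxic T cells, B cells and helper T cells, with 1 point per array coloured by the rank of the animal and a bar at the group mean. CXCL8, CCL3L3 and CCL3L1 were above 11.8 in every monocyte array, CCL5 was above 12.8 in every cytotoxic array, and CCL21 and CXCL17 did not exceed 8.20 in any of the 18 arrays.

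CXCL8, the neutrophil attractant once named interleukin 8, was a transcript of monocytes, with a lower and variable signal in lymphocytes. Its values in the monocytes of ranks 1 to 5 were 14.34, 14.16, 13.54, 14.50 and 13.76 log2. In cytotoxic T cells of ranks 1, 2, 3 and 5 they were 8.68, 9.79, 8.06 and 8.11, and in B cells of the same animals 9.11, 9.80, 8.13 and 8.28. In helper T cells of ranks 1 to 5 they were 8.51, 9.77, 8.16, 8.65 and 8.24. The lowest monocyte array stood 3.73 above the highest lymphocyte array. CXCL8 was higher in monocytes by 5.17 ± 0.20 (SE) than in B cells (adjusted p = 1.98e-10, limma), by 5.39 ± 0.18 than in helper T cells (adjusted p = 3e-11) and by 5.35 ± 0.20 than in cytotoxic T cells (adjusted p = 1.01e-10). If the scale is log2, these are 36.1-fold, 42.0-fold and 40.7-fold.

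Within the lymphocytes CXCL8 varied more between animals than between the means of the cell types, though an animal effect was not tested. The 3 lymphocyte arrays of the rank 2 animal lay between 9.77 and 9.80, and the other 10 lay between 8.06 and 9.11. The order of the animals was the same in each lymphocyte type, with rank 3 lowest, then 5, then 1, then 2, and with rank 4 between 1 and 2 in helper T cells. The 3 lymphocyte types did not pass the test against each other. Cytotoxic minus helper T cells gave 0.05 (95% interval -0.38 to 0.47), cytotoxic T cells minus B cells -0.17 (-0.60 to 0.26) and B cells minus helper T cells 0.22 (-0.20 to 0.64). By animal, cytotoxic T cells were lower than B cells in 4 of 4, and B cells were higher than helper T cells in 3 of 4. The monocyte marker list (7 genes) was highest in the rank 2 animal within each lymphocyte type, with an average of 8.20 in its B cells and 8.01 in its helper T cells. In the lymphocyte arrays of the other animals it averaged between 7.88 and 8.10, against 11.82 to 12.65 in monocytes. CCL3L3, another monocyte transcript, was not set apart in the lymphocytes of rank 2, with 9.31 in cytotoxic T cells, 8.80 in B cells and 8.81 in helper T cells. Whether monocyte RNA had a part in the lymphocyte CXCL8 values was not tested.

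CCL3L3 and CCL3L1, near-identical copies of the gene for CCL3 (macrophage inflammatory protein 1 alpha), were also monocyte transcripts. The arrays cannot assign their signal to a single copy, and neither symbol occurs in the macaque RefSeq table used, which holds CCL3. CCL3L3 was at 14.60, 14.47, 14.10, 14.24 and 14.47 in the monocytes of ranks 1 to 5. It was at 9.75, 9.31, 9.18 and 9.46 in cytotoxic T cells and at 9.02, 8.80, 8.82 and 8.25 in B cells of ranks 1, 2, 3 and 5. In helper T cells of ranks 1 to 5 it was at 8.63, 8.81, 8.16, 8.17 and 8.58. No monocyte array came within 4.35 log2 of a lymphocyte array. The F statistic of CCL3L3 over the 4 cell types was exceeded by only 15 of the 7303 probes.

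The CCL3L3 probe was higher in monocytes than in B cells by 5.71 ± 0.13 (adjusted p = 1.85e-12, limma), than in helper T cells by 5.91 ± 0.12 (adjusted p = 3.56e-13) and than in cytotoxic T cells by 5.00 ± 0.13 (adjusted p = 4.83e-12). Among lymphocytes it was higher in cytotoxic than in helper T cells by 0.90 ± 0.13 (adjusted p = 0.00215) and than in B cells by 0.71 ± 0.14 (adjusted p = 0.0018), each in 4 of 4 animals and without overlap of the groups. With all 20 arrays these 2 calls were lost (adjusted p = 0.0995 and 0.0826), and without the rank 1 animal the first was (adjusted p = 0.0588). B cells minus helper T cells gave 0.20 (95% interval -0.09 to 0.49).

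The CCL3L1 probe had the same order of cell types with a wider spread among monocytes. It was at 13.95, 13.66, 11.83, 13.25 and 12.86 in the monocytes of ranks 1 to 5. In cytotoxic T cells of ranks 1, 2, 3 and 5 it was at 8.36, 7.90, 8.32 and 8.12, in the B cells of those animals at 8.06, 7.85, 7.82 and 7.68, and in helper T cells of ranks 1 to 5 at 7.67, 7.78, 7.77, 7.68 and 7.81. Its difference was 5.25 ± 0.29 from B cells (adjusted p = 7.09e-09, limma), 5.37 ± 0.26 from helper T cells and 4.93 ± 0.29 from cytotoxic T cells. All 5 helper arrays, 3 of the 4 B cell arrays and 1 cytotoxic array were under the lower quartile, so these sizes depend on the floor. The 4 cytotoxic arrays lay above the 5 helper arrays here too, but the difference of 0.44 ± 0.29 did not pass (adjusted p = 0.648). That SE carries the pooled spread of the monocytes too, and cytotoxic T cells were higher in 4 of 4 animals. The SD among the 5 monocyte arrays was 0.83 for CCL3L1 and 0.20 for CCL3L3.

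CCL2, CCL7 and CCL8, the monocyte chemoattractant proteins, were higher in monocytes than in every lymphocyte type but differed widely between animals. In the RefSeq gene table of the T2T-MMU8v2.0 macaque assembly CCL2 and CCL7 are next to each other, with 0 protein-coding genes between them, and 1 gene, CCL11, lies between CCL7 and CCL8. In monocytes of ranks 1 to 5 CCL7 was at 12.36, 12.27, 8.91, 11.11 and 10.72, and CCL2 at 10.95, 10.89, 7.89, 9.32 and 8.16. CCL8 was at 10.26, 9.46, 8.87, 9.18 and 8.69 in the same arrays. The monocytes of the 2 highest-ranking animals carried the most of each, and those of rank 3 the least CCL7 and CCL2. CCL7 was at 7.50, 7.60, 7.57 and 7.58 in cytotoxic T cells and at 7.63, 7.57, 7.56 and 7.65 in B cells of ranks 1, 2, 3 and 5, and at 7.64, 7.61, 7.50, 7.66 and 7.61 in helper T cells of ranks 1 to 5. CCL2 was at 7.61, 7.64, 7.69 and 7.63 in cytotoxic T cells, at 7.73, 7.68, 7.66 and 7.60 in B cells and at 7.66, 7.67, 7.71, 7.66 and 7.69 in helper T cells of the same animals. CCL8 was at 7.82, 7.68, 7.74 and 7.77 in cytotoxic T cells, at 7.78, 7.72, 7.87 and 7.75 in B cells and at 8.01, 7.79, 7.74, 7.76 and 7.59 in helper T cells. All 13 lymphocyte arrays were thus under the lower quartile for each of the 3 genes. CCL2 of the rank 3 monocytes was under that quartile as well, 0.16 above the highest lymphocyte array.

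Those lymphocyte values cannot be told from background, so the sizes of the differences depend on the floor of the scale. CCL7 was higher in monocytes by 3.46 ± 0.46 than in B cells (adjusted p = 2.96e-05, limma), by 3.47 ± 0.42 than in helper T cells and by 3.50 ± 0.46 than in cytotoxic T cells. For CCL8 the 3 differences were 1.52 ± 0.20, 1.51 ± 0.18 and 1.55 ± 0.20, and for CCL2 1.79 ± 0.48, 1.77 ± 0.44 and 1.82 ± 0.48. The groups did not overlap for any of the 3 genes. CCL2 was the least firm. Against B cells its adjusted p was 0.00655, but 0.0543 without the rank 1 animal, 0.0528 without rank 2 and 0.0592 when only these cell types were fitted. Against cytotoxic T cells it was 0.00539, and 0.059 when only those 2 types were fitted. The lymphocyte types did not differ by the test in any of these genes. The largest of their differences was that of CCL2 between cytotoxic and helper T cells, at -0.05, with a 95% interval of -1.09 to 0.99 that carries the pooled spread of the monocytes too.

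**Figure D2:**
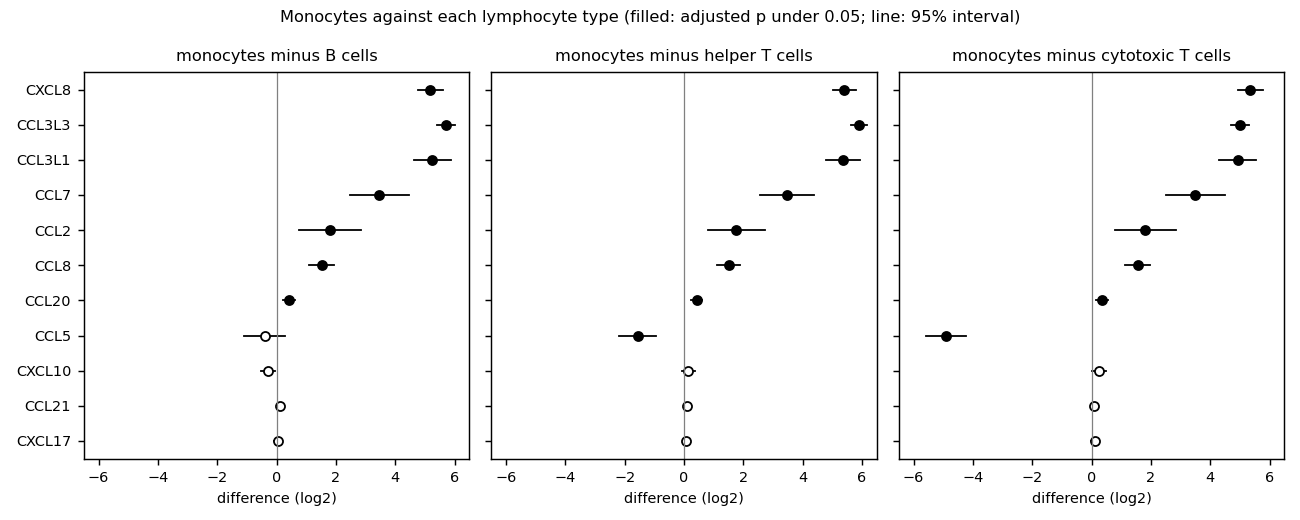
Fitted log2 differences of the 11 ligands for monocytes minus B cells, minus helper T cells and minus cytotoxic T cells, with 95% intervals of the fit and filled points where the adjusted p was under 0.05. Differences over 4.9 stand for CXCL8, CCL3L3 and CCL3L1 in all 3 panels, and CCL5 lies at -4.90 against cytotoxic T cells. CXCL10 was also negative against B cells, at -0.28, without passing the test.

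Among the 7303 probes, only 8 had a larger SD than CCL2 (1.45) over the 5 monocyte arrays, and only 12 a larger one than CCL7 (1.41). The median SD of all probes there was 0.158. CCL3L1 (0.83) and CCL8 (0.61) were exceeded by 1% and 2.79% of probes, CXCL8 (0.40) by 11.2% and CCL3L3 (0.20) by 38.1%. CCL2 and CCL7 were thus among the most variable probes. CCL3L3 was read at 14.10 to 14.60, close to the highest value of the scale, so its small SD is not comparable with theirs. The rank 3 monocytes had the lowest value of CXCL8, CCL3L3, CCL3L1, CCL7 and CCL2. The monocyte marker list averaged 12.65 in that array, the highest of the 5, and CD14 was at 14.16 there, against 12.43, 12.14, 12.48 and 13.71 in ranks 1, 2, 4 and 5, and the part of monocyte content in the ligand values was not tested. PTGS2, the inducible cyclooxygenase, did not share the order of the animals, with 10.60, 9.66, 10.76, 11.39 and 11.72 in monocytes of ranks 1 to 5.

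**Figure D3:**
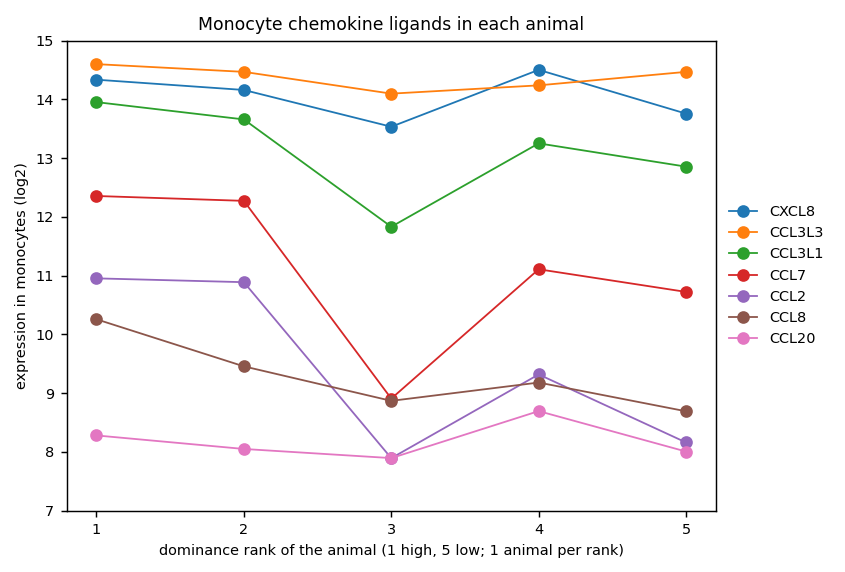
Log2 expression of 7 ligands in the monocytes of each animal, with dominance rank on the x axis (1 high, 5 low, 1 animal per rank) and a line per gene. CCL7 and CCL2 span 3.45 and 3.06 log2 between animals, and CCL3L3 spans 0.50.

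Markers of other blood cells that could ride with monocytes were read beside these values. As background, 22.8% of all probes were higher in monocytes than in B cells, 27.5% than in helper T cells and 26.5% than in cytotoxic T cells. Of 5 measured granulocyte markers, 4 were higher in monocytes than in B cells and helper T cells and 3 than in cytotoxic T cells, led by CAMP and CSF3R, which monocytes also express. The list averaged 10.03 to 10.61 in monocytes and 7.88 to 8.03 in lymphocytes. MPO was also higher in monocytes, by 0.33 ± 0.06 than in B cells (adjusted p = 0.000283, limma). It was higher by 0.41 ± 0.05 than in helper T cells and by 0.44 ± 0.06 than in cytotoxic T cells. LTF, the granule protein lactoferrin, did not pass (0.03 ± 0.06 for monocytes minus B cells). Of 5 platelet markers GNG11 and TREML1 were higher in monocytes than in each other type, GNG11 by 1.79 ± 0.18 than in B cells. ITGA2B and GP9 did not pass, and the list averaged 8.21 to 8.47 in monocytes and 7.91 to 8.05 in lymphocytes. The platelet average was 8.47, 8.46, 8.21, 8.37 and 8.26 in monocytes of ranks 1 to 5, the same order of animals as CCL2, CCL7 and CCL3L1. The part of such cells in the ligand values was not tested. In RNA of a sorted pool, fewer cells of a type and less RNA per cell cannot be told apart.

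CCL20, which draws cells bearing CCR6, was dim but higher in monocytes. It ranged from 7.89 to 8.69 in monocytes (median 8.05) and from 7.69 to 7.89 in the 13 lymphocyte arrays, so that the groups did not overlap by a margin of only 0.001. The difference was 0.41 ± 0.09 from B cells (adjusted p = 0.0022, limma), 0.42 ± 0.09 from helper T cells and 0.35 ± 0.09 from cytotoxic T cells. In all, 15 of the 18 arrays were under the lower quartile, so these sizes depend on the floor too. The rank 4 monocytes, at 8.69, held the highest value, as they did for CXCL8.

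CCL5 was the ligand that peaked in the cytotoxic T cell (CD8) sort. All 6 measured natural killer cell markers were also higher in that sort than in each other type. For scale, 1.44% of all probes were higher there than in helper T cells, 12.8% than in B cells and 32.8% than in monocytes. The part of natural killer cells in the CCL5 and CCL3L3 values of that sort was not tested. Monocytes of ranks 1 to 5 had CCL5 at 8.32, 8.22, 7.97, 7.94 and 8.01, and 3 of these 5 arrays were under the lower quartile. Cytotoxic T cells had 13.66, 12.81, 12.92 and 13.26 and B cells 8.77, 8.61, 8.98 and 8.31 in ranks 1, 2, 3 and 5. Helper T cells of ranks 1 to 5 had 9.98, 10.37, 8.86, 8.45 and 10.60. All cytotoxic arrays lay more than 2 log2 above every other array, and the helper arrays were spread between the levels of B cells and of cytotoxic T cells.

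Against cytotoxic T cells, monocytes were lower in CCL5 by 4.90, as a difference of -4.90 ± 0.32 (adjusted p = 2.64e-08, limma). Between the T cell types, where 1.44% of all probes were higher and 1.2% lower in cytotoxic cells, CCL5 and CCL3L3 were the only 2 ligands called, both higher in cytotoxic cells. CCL5 was higher there by 3.34 ± 0.32, or 10.1-fold on the log2 reading (adjusted p = 7.81e-05), in 4 of 4 animals. Cytotoxic T cells exceeded B cells in CCL5 22.6-fold on the log2 reading (SE 0.32 log2, adjusted p = 2.98e-07), and CCL5 and CCL3L3 were the ligands higher there, against 12.8% of all probes. The comparison with helper T cells was lost with all 20 arrays (adjusted p = 0.16), where the rank 4 array labelled cytotoxic had CCL5 at 8.13. Monocytes were also lower than helper T cells, with a difference of -1.56 ± 0.29 (adjusted p = 0.000379, and 0.0708 with 20 arrays). For monocytes minus B cells the difference of -0.41 ± 0.32 did not pass (adjusted p = 0.303).

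B cells were lower than helper T cells in CCL5 by the test, with a difference of -1.16 ± 0.32 (adjusted p = 0.0159, limma), where 13.3% of all probes were lower and 11.9% higher in B cells. CCL5 was the only ligand lower and CXCL10 the only one higher. The CCL5 call did not hold widely. The groups overlapped, and B cells were lower in 3 of 4 animals and higher in rank 3. The adjusted p was 0.336 with all 20 arrays, 0.0713 without the animal as a block and 0.0521 when only the 2 types were fitted. It was 0.0836, 0.097 and 0.118 without rank 1, 2 or 5. CD3D, a T cell marker, was at 9.74, 9.41, 10.32 and 11.17 in the B cells of ranks 1, 2, 3 and 5, and CD8A at 8.20, 9.64, 10.97 and 8.71. The part of T cells in the B cell values of CCL5 was not tested.

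The helper arrays differed in CCL5 between animals more than in nearly all other probes, with an SD of 0.95 that only 21 of 7303 probes exceeded. The order of the 5 animals was the order of CD8A, a chain of the CD8 co-receptor of cytotoxic T cells. CD8A was at 8.31 in the helper array of rank 4, below 10 in that of rank 3, and at 10.62, 10.72 and 11.29 in those of ranks 1, 2 and 5, against 13.84 or more in the 4 cytotoxic arrays. The whole list of 6 cytotoxic markers averaged 9.30, 9.57, 9.18, 8.54 and 9.89 there (ranks 1 to 5), the order again being that of CCL5. It averaged 11.25 to 11.83 in cytotoxic, 7.93 to 8.37 in B cell and 7.85 to 8.22 in monocyte arrays. GZMH, a granzyme of cytotoxic granules, was at 12.43, 12.75, 11.69, 10.61 and 12.76 in the helper arrays. CD8B, the other chain of CD8, stayed between 7.79 and 8.01 there, against 8.92 to 9.40 in cytotoxic arrays. The natural killer cell list (6 genes) averaged 8.18 to 9.06 in helper and 9.69 to 10.36 in cytotoxic arrays, with rank 4 lowest and rank 5 highest in helper cells. The part of cytotoxic or natural killer cells in the helper values of CCL5 was not tested.

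**Figure D4:**
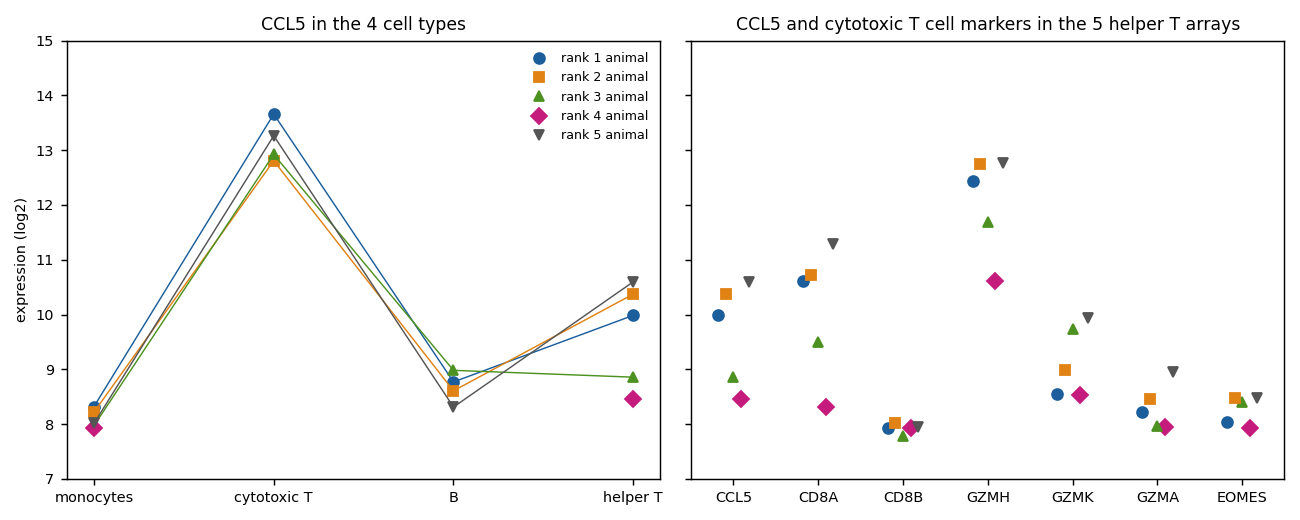
Left, log2 expression of CCL5 in monocytes, cytotoxic T cells, B cells and helper T cells, with points coloured by animal and lines joining neighbouring types of 1 animal. Right, CCL5 and 6 cytotoxic T cell markers in the 5 helper T cell arrays, where CCL5 and CD8A both run from rank 4 (lowest) over ranks 3, 1 and 2 to rank 5, while CD8B stays at or under 8.01.

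CXCL10 was the ligand that was higher in B cells than in T cells, by a small amount. In B cells it was at 8.53, 8.68, 7.93 and 8.11 in ranks 1, 2, 3 and 5. It lay between 7.76 and 7.82 in cytotoxic and between 7.80 and 7.92 in helper arrays, so that the B cell arrays overlapped with neither, though rank 3 lay close to the helper arrays. B cells exceeded helper T cells by 0.43 ± 0.11 (adjusted p = 0.0128, limma, and 0.0806 and 0.084 without rank 1 or 2). Cytotoxic T cells were lower than B cells, with a difference of -0.53 ± 0.12 (adjusted p = 0.00432), and CXCL10 was the only ligand lower there, against 12.1% of all probes. Monocytes, at 8.32, 7.96, 7.98, 7.87 and 7.95 in ranks 1 to 5, did not pass against B cells (-0.28 ± 0.11, adjusted p = 0.0504). Of the 18 arrays 14 were under the lower quartile.

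CCL21, a product of lymph node stroma that guides cells bearing CCR7, and CXCL17, a mucosal chemokine, showed no call in any of the 6 contrasts. The smallest unadjusted p-values of CCL21 were 0.0377 for monocytes minus B cells (0.12 ± 0.05) and 0.045 for monocytes minus helper T cells (0.11 ± 0.05, higher in 5 of 5 animals), with adjusted p-values of 0.0672 and 0.0703 by limma. CCL21 ranged from 7.67 to 7.93 and was under the lower quartile in all 18 arrays. CXCL17 ranged from 7.83 to 8.20 and was under it in 9. The widest reach of the 95% intervals over the 6 differences was up to 0.23 log2 for each of them, in monocytes minus B cells for CCL21 and in monocytes minus cytotoxic T cells for CXCL17.

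Along dominance rank no ligand passed in monocytes, in helper T cells or in the difference of their slopes, and 0% of all probes did in each of these 3 tests (limma, 5 arrays per type). The slope in monocytes was negative, meaning lower in lower-ranking animals, for 8 of the 11 ligands. It was negative for 7 in helper T cells, and the difference of slopes was for 7. The share of negative slopes over all probes was not computed, so these counts cannot be read as a trend. At an unadjusted p under 0.05, 2 ligands lay under the threshold in monocytes, where 6.45% of all probes did, namely CCL8 and CCL2. The slope of CCL8 was -0.34 ± 0.09 per rank step (adjusted p = 0.647, exact permutation p = 0.0667) and that of CCL2 -0.72 ± 0.26 (adjusted p = 0.647, exact permutation p = 0.133). The smallest p that the 120 orders of 5 animals allow is 0.0167. In helper T cells 1 ligand had an unadjusted p under 0.05, where 5.57% of all probes did. This was CCL8, with -0.09 ± 0.03 per step (adjusted p = 0.77, exact permutation p = 0.0333), in arrays that were all under the lower quartile. For the difference of slopes, monocytes minus helper T cells, CCL2 (-0.72 ± 0.25) and CCL8 (-0.25 ± 0.07) were the 2 with an unadjusted p under 0.05 (6.2% of all probes), each with an adjusted p of 0.756. Since 1 female held each rank, rank cannot be told apart from the animal or its social group.

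Of 23 listed chemokine receptors 9 were measured. In monocytes CCR2, the receptor for CCL2, CCL7 and CCL8, was higher than in B cells by 0.93 ± 0.11, than in helper T cells by 0.86 ± 0.10 and than in cytotoxic T cells by 0.87 ± 0.11 (adjusted p = 1.75e-05 at most, limma). CXCR4, the receptor for CXCL12, was lower in monocytes than in cytotoxic T cells, with a difference of -2.08 ± 0.30, and CXCR5, a receptor of follicular B cells, was lower than in B cells, with -1.93 ± 0.09. CXCR2, a receptor of CXCL8, was higher in monocytes than in helper T cells by 0.35 ± 0.09, and CXCR1, the other, did not pass in any monocyte contrast. ACKR3, a scavenging receptor for CXCL12, was higher in monocytes than in cytotoxic T cells by 1.05 ± 0.29. CX3CR1, the receptor for fractalkine, was lower in monocytes than in cytotoxic T cells, with -1.01 ± 0.18, and than in helper T cells, with -0.46 ± 0.16.

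In number, 2 receptors were higher and 2 lower in monocytes than in B cells, 4 and 3 than in helper T cells, and 2 and 2 than in cytotoxic T cells. With 9 receptors, 2 to 4 a direction is near the shares of all probes given above (22.8% to 27.5% higher and 30.8% to 34% lower). The median difference of the 9 receptors was 0.11, 0.07 and 0.02 for the 3 monocyte contrasts, against 1.52, 1.51 and 1.55 for the ligands.

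Genes that act with these ligands in inflammation were counted in the same way. Of 21 listed genes of the NF-kB pathway and its inflammatory targets 8 were measured, and 2 were higher and 2 lower in monocytes than in B cells. The counts against B cells are near the shares of all probes (22.8% higher, 30.8% lower). Against helper T cells 3 were higher and 1 lower, where 27.5% and 34% of all probes were. Against cytotoxic T cells 3 were higher and 1 lower too, where 26.5% and 32.8% of all probes were. PLAUR, which binds urokinase, exceeded its B cell level by 3.54 ± 0.13 and PTGS2 by 3.02 ± 0.26. NFKBIA, the inhibitor of NF-kB, was lower, with -0.69 ± 0.13, and so was RELB, a subunit of NF-kB, with -0.72 ± 0.21. REL, another subunit, was higher than in helper T cells by 0.45 ± 0.07 and than in cytotoxic T cells by 0.46 ± 0.07. The median of the list was -0.06 for monocytes minus B cells. Of 9 measured interferon-induced genes 5 were higher and 1 was lower in monocytes than in B cells, where 22.8% and 30.8% of all probes were, with IFI6 at 1.83 ± 0.31, IFI44 at 1.78 ± 0.22, GBP1 at 1.29 ± 0.32 and ISG20 at -0.87 ± 0.21, and the median was 0.67. Against helper T cells 5 of the 9 were higher and 1 lower (27.5% and 34% of all probes), with a median of 0.40. Against cytotoxic T cells 3 were higher, near the 26.5% of all probes, and 1 was lower (32.8%), with a median of 0.28. IRF7, a transcription factor of the interferon response, was higher in monocytes than in helper T cells by 0.65 ± 0.11, and OAS1, an antiviral enzyme, than in cytotoxic T cells by 0.19 ± 0.06. Their average in monocytes was 10.18 in rank 1 and 9.17, 8.84, 9.16 and 8.98 in ranks 2 to 5. The rank 1 animal had the highest monocyte CCL8 and CXCL10, and also the highest CCL2, CCL5, CCL7, CCL3L1 and CCL3L3.

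The genes whose pattern over the 18 arrays was most like that of a ligand were found by Pearson's correlation, as a description, since the arrays share cell types and animals. For CCL5 they were NUDT11 (0.983), CST7 (0.982), CD8A (0.977), KLRD1 (0.969) and GNLY (0.968). CST7, KLRD1 and GNLY are genes of killer lymphocytes. For CCL3L3 they were SERPINB10 (0.987), CPVL (0.987), AIF1 (0.986), CCL3L1 (0.986) and DUSP6 (0.985). For CXCL8 they were NAMPT (0.981), NDEL1 (0.981), CAMP (0.979), SERPINB10 (0.977) and S100A9 (0.977).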

How the data were processed

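Per the labels' protocols, a column kit (RNeasy) gave the RNA, which was amplified and labelled (MessageAmp) for Illumina beadchips. The submitters' processing notes name lumi, and details of background correction, probe filter and sort gates were not found in the labels. The authors deposited log2-like values of 7303 probes, equal in both tables although 1 is named as not normalized. The columns share 1 distribution to within 0.000913, and no source states the log base. If it is lumi's variance-stabilised scale, differences of dim probes are understated. The number of arrays limits the precision. Symbols came from the platform annotation (6055 probes with 1 symbol, 1 with several, 1247 without), and 9 of the 11 ligand symbols were in the macaque RefSeq table.

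Differences between types came from lmFit and eBayes of limma 3.58.1 (R 4.3.3, all probes, 18 arrays, animal as a block, two-sided, Benjamini-Hochberg within each of 6 contrasts, threshold 0.05). The titles show that arrays of a rank come from 1 animal, and their deviations from the cell type means correlated at a median of 0.478 over 25 pairs. The fits were tested on simulated data. Values in every array are given for ligands called over the 4 types with a called difference of at least 1 log2. Of the receptor, NF-kB and interferon lists, the called genes with the largest differences in each monocyte contrast are named, 4 at most. Other lists were chemokine receptors, NF-kB and interferon genes and markers of T, cytotoxic T, NK, B, dendritic cells, monocytes, platelets and granulocytes. A list of ligands under other symbols had 0 measured genes. The ligands and lists were chosen with earlier results of these data known. Alternatives were 20 arrays, no block, cyclic loess, a filter on dim probes, an intensity trend with robust eBayes, fits of 2 types alone, a minimum of 0.5 log2, and leaving out each animal.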

Additional observations from a re-analysis of the deposited data

Results flagged for a closer look

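Among 44 groups of 4 or 5 arrays, 1 ligand value stood far from the rest of its group, where chance alone gives about 1 in 20. CXCL10 in the monocytes of the rank 1 animal was at 8.32, and the next highest monocyte array was at 7.98.

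In the 2 rank 4 arrays that were left out, 3 ligands exceeded every one of the 18 arrays used. The share of all probes that did so was not computed, and these arrays correlated with the 18 at no more than 0.193. The count therefore cannot be read as a result about the ligands. CXCL17 was at 10.28 in the array labelled cytotoxic T cells and at 10.26 in the one labelled B cells, against at most 8.20 elsewhere. CCL21 was at 8.63 and 8.15 in the same arrays, against at most 7.93. CXCL10 was at 8.70 in the array labelled B cells, against at most 8.68.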

How the results depend on the processing

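Of the 30 called differences of single ligands, none changed direction under any alternative, and all 30 kept their call with cyclic loess and with the intensity trend. With 20 arrays 5 lost it, with 2 types alone 3, and without the animal as a replicate block 1, which was CCL5 in B cells minus helper T cells. Leaving out rank 1, 2, 3, 4 or 5 lost 4, 3, 0, 0 and 1. With 20 arrays no ligand was enriched in cytotoxic T cells (0) or called between the T cell types (0), and 1 was called in B cells minus helper T cells. That last count was also 1 without the replicate block, 1 with 2 types alone and 1 with the filter on dim probes. The filter kept 5 ligands, so counts fell to 5 over the 4 cell types, to 4 for monocytes minus B cells and to 5 and 5 for monocytes minus helper and minus cytotoxic T cells. Leaving out 1 animal gave 1 to 2 for cytotoxic minus helper T cells and 0 to 2 for B cells minus helper T cells. Rank counts stayed at 0. Signal near the lower quartile limits CCL20, CCL21, CXCL10 and CXCL17. Lymphocyte signal near or under it also limits the sizes for CCL2, CCL7, CCL8 and CCL3L1, and monocyte signal those for CCL5.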

Other observations

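The most variable probes among the monocytes of the 5 animals, looked up after the spread of CCL2 and CCL7 had been seen, included CTSL, the lysosomal protease cathepsin L, and EDN1, the peptide endothelin. CTSL was at 14.45, 14.43, 10.61, 13.60 and 10.30 in ranks 1 to 5, with a second probe between 10.39 and 14.29, and EDN1 at 11.92, 11.57, 8.01, 10.80 and 8.91. SPRY4, an inhibitor of growth factor signalling, was at 10.41, 10.85, 7.72, 9.48 and 7.96. In CTSL, EDN1 and SPRY4, as in CCL2, ranks 1, 2 and 4 lay above ranks 3 and 5. The same split held for most of the 30 most variable probes, among them FHL2, BASP1, JARID2, HBB and CCL7. These probes were picked by their spread over the same 5 arrays. The share of all probes with the split was not computed, so its frequency among the 30 cannot be read as a trend. A minority of the 30 had other orders. RAB10 had the opposite split, at 9.34, 9.35, 11.66, 9.93 and 11.54 in ranks 1 to 5. CCDC134, the most variable, was at 7.62, 12.35, 10.57, 10.93 and 7.66 in ranks 1 to 5, and HLA-DQB1 was lowest in rank 4, at 8.35. ACKR3 was at 9.19, 9.88, 7.67, 7.97 and 8.19 in the same monocytes, at 8.47 or more in the 4 B cell arrays and at most at 7.65 in T cells.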
